A study of Mus musculus with 75 samples.

Results

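10 genes of the interleukin-6 (IL-6) signalling axis were followed in mouse gastrocnemius, a hindlimb muscle: the receptor genes Il6ra, Il6st and Osmr, the kinase gene Jak2, the transcription factor gene Stat3, its feedback inhibitor gene Socs3, and the nuclear regulator genes Cebpb, Cebpd, Bcl3 and Sbno2. In the order just given their Ensembl identifiers are ENSMUSG00000027947, ENSMUSG00000021756, ENSMUSG00000022146, ENSMUSG00000024789, ENSMUSG00000004040, ENSMUSG00000053113, ENSMUSG00000056501, ENSMUSG00000071637, ENSMUSG00000053175 and ENSMUSG00000035673. They were chosen by name, as receptors, transducers and regulators of this axis, with earlier results of these data known, so counts of them set beside the share of all genes are a description. All 10 are among the 13856 genes of the expression table. The series compared the effects of a tumour and of chemotherapy on skeletal muscle in both sexes. Balb/c mice received 1000000 C26 cells, a mouse colon carcinoma line, injected on both sides of the body, or phosphate-buffered saline (PBS) in place of cells. From day 12 the tumour-bearing mice were given 5-fluorouracil, paclitaxel or cisplatin at 75% of the maximum tolerated dose, in 2 cycles with 2 injections a week, or saline as vehicle, and the PBS mice were given saline. Muscle was taken on day 25 and its total RNA was sequenced.

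The females comprised 7 PBS saline, 7 C26 saline, 8 C26 5-fluorouracil, 7 C26 paclitaxel and 6 C26 cisplatin libraries. The males comprised 8 PBS saline, 8 C26 saline, 8 C26 5-fluorouracil, 6 C26 paclitaxel and 8 C26 cisplatin libraries. All mice share the strain, and each drug was given to tumour-bearing mice and at a single dose. C26 is a single transplanted line, so the tumour effect is that of 1 line. None of these groups received a drug without a tumour, so an effect of a drug on muscle and an effect through the tumour cannot be told apart. The age of the mice is not legible in the sources used here. The labels do not say which mouse each library came from and give all libraries the same batch, and every p-value given here is therefore set against a spread among libraries that may be technical in part.

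IL-6 binds its receptor subunit, encoded by Il6ra, and the pair engages gp130, the signalling subunit encoded by Il6st that is shared by the whole cytokine family. Oncostatin M signals through gp130 paired with the receptor encoded by Osmr. The bound kinase JAK2 and its relatives phosphorylate STAT3, which enters the nucleus and switches on target genes, among them Socs3, whose product binds gp130 and JAK and shuts the signal off. In muscle of tumour-bearing animals this axis is known for its association with the acute-phase response and with wasting.

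The start regions of Socs3, Sbno2, Stat3 and Bcl3, whose levels were the most closely correlated of the 10 genes, are shown for the presence or absence of a STAT motif. RefSeq promoters (build GRCm38.p6, 250 bases before to 50 after a start) were matched by symbol for 9 of the 10 genes, with 11 starts. Cebpd was not matched. The motif searched was TTCNNNGAA, the core of a STAT site, which reads the same on both strands. It occurs in the promoter of Socs3 and in those of 2 of the 3 starts of Sbno2, a transcriptional co-regulator induced by STAT3, and in 8.30% of all 32851 promoters in the same table. Capitals mark the motif, whose first base lies at -154 from the start in Socs3, at -26 from the first Sbno2 start and at -24 from the second. Stat3 and Bcl3 are shown beside them and have no match in this window. All 5 are on the minus strand, at chr11:117969317-117969616 (Socs3), chr10:80102653-80102952 and chr10:80101138-80101437 (Sbno2), chr11:100939491-100939790 (Stat3) and chr7:19822706-19823005 (Bcl3).
Socs3: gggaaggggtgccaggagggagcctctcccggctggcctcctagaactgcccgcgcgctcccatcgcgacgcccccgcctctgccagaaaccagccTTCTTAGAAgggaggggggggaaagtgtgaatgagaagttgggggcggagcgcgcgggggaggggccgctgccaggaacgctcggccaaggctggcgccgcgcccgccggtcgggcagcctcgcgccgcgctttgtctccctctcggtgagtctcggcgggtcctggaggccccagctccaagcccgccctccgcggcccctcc
Sbno2 first start: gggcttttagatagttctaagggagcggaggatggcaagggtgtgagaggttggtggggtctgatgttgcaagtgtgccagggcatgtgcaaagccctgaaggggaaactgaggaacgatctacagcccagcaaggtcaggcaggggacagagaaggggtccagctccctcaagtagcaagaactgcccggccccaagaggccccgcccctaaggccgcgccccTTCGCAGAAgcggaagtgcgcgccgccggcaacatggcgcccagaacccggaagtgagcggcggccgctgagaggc
Sbno2 second start: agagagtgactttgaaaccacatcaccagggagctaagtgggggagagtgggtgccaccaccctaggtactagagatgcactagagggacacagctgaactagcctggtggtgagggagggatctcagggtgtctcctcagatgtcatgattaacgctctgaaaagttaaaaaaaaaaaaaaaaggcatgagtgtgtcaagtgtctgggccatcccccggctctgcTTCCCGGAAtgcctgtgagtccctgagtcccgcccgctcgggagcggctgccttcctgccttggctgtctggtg
Stat3: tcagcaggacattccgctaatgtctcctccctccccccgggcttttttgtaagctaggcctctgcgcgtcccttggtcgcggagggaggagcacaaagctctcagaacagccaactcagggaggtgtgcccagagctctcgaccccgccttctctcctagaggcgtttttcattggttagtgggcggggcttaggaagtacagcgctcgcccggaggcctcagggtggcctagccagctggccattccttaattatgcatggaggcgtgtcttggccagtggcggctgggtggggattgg
Bcl3: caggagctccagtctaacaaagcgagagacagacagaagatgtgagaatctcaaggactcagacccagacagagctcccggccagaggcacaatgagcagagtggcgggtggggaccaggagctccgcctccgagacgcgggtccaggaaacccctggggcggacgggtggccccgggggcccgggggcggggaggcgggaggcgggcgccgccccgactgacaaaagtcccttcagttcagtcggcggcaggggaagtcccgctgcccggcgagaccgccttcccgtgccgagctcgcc
The C/EBP core TTGCNNAA and the cyclic AMP response element TGACGTCA, both searched on each strand and found in 10.8% and 1.79% of all promoters, had no match in the 11 windows. These matches describe letters in a window and were not tested for binding.

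Values below are the deposited log2 values (called levels), and a change is a difference of group means on that log2 scale, with its standard error from limma. A gene is said to have risen or fallen where limma's adjusted p (Benjamini-Hochberg over all 13856 genes) was under 0.05. The libraries held an estimated 11389100 to 40465500 counts, with a median of 22494700, and the 8 muscle fibre markers were present in every library, with none at 0. In whole muscle, fewer cells of a type and less RNA per cell cannot be told apart. Libraries differed in how their values leaned on transcript GC content: in 19 of 73 the slope of a library's deviations on GC exceeded 0.1 log2 per SD of GC content, and these had a median of 2.58% of signal from mitochondrial genes against 10.5% in the others. They were 4 of 6 male paclitaxel and 4 of 8 male 5-fluorouracil libraries, 2 each in female PBS, male PBS, female 5-fluorouracil, female paclitaxel and male cisplatin, 1 of the female C26 saline, and none of the male C26 saline or female cisplatin libraries. Counts of the 10 genes called are therefore also given without these 19 libraries. The share of all genes was not computed for those fits, for fits without 1 library or at an unadjusted p. Such counts of the 10 genes are therefore a description.

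Most of the axis was higher in tumour hosts of both sexes. In C26 saline against PBS saline, 8 of the 10 genes rose and none fell in females, where 4.14% of all genes rose and 2.56% fell. In males 8 rose and 1, Jak2, fell, where 13.1% of all genes rose and 13% fell. The 10 genes had a median change of 1.46 in females and 1.76 in males, beside -0.01 and 0.00 over all genes. In 6 of the 10 no C26 saline library overlapped the PBS range, in each sex, against 1.64% of all genes higher without overlap in females and 2.74% in males. Without the high-GC libraries 8 rose in females, and in males 9 rose and Jak2 fell. The shares above are those of the fit to all libraries.

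Among the receptors, Il6ra, the subunit that binds IL-6 itself, had the largest change. In females its level ran from 2.18 to 3.62 (median 3.10) with PBS and from 4.16 to 6.19 (median 5.06) with the tumour. In males it ran from 2.43 to 3.41 (median 2.90) with PBS and from 4.96 to 6.44 (median 5.84) with the tumour. The tumour libraries all lay above the PBS libraries in both sexes. The change was 2.07 ± 0.36 in females (4.20-fold, adjusted p = 4.94e-05) and 2.86 ± 0.34 in males (7.28-fold, adjusted p = 1.22e-09).

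Osmr, the partner of gp130 for oncostatin M, rose by 1.45 ± 0.23 in females (2.73-fold, adjusted p = 1.3e-05) and by 1.76 ± 0.22 in males (3.38-fold, adjusted p = 5.64e-09). Its female level ran from 2.30 to 3.28 (median 3.05) with PBS and from 3.40 to 4.90 (median 4.45) with the tumour. Its male level ran from 2.33 to 3.26 (median 2.92) with PBS and from 4.02 to 5.06 (median 4.53) with the tumour. Neither pair of groups overlapped. The lowest female tumour library, C26 saline replicate 7 at 3.40, is also the one of that group with a GC slope over 0.1, and the next lowest was at 4.31.

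Il6st, the shared subunit gp130, moved less. Its male level ran from 6.96 to 7.36 with PBS (median 7.08) and from 7.63 to 8.23 with the tumour (median 7.91), with no overlap and a change of 0.78 ± 0.10 (1.72-fold, adjusted p = 2.25e-08). Its female level ran from 6.97 to 7.39 (median 7.25) and from 7.18 to 7.90 (median 7.68), with overlap and a change of 0.40 ± 0.11 (adjusted p = 0.0155). The female call was lost without C26 saline replicate 1 (0.35, adjusted p = 0.053) or replicate 6 (0.37, adjusted p = 0.0508).

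**Figure D1:**
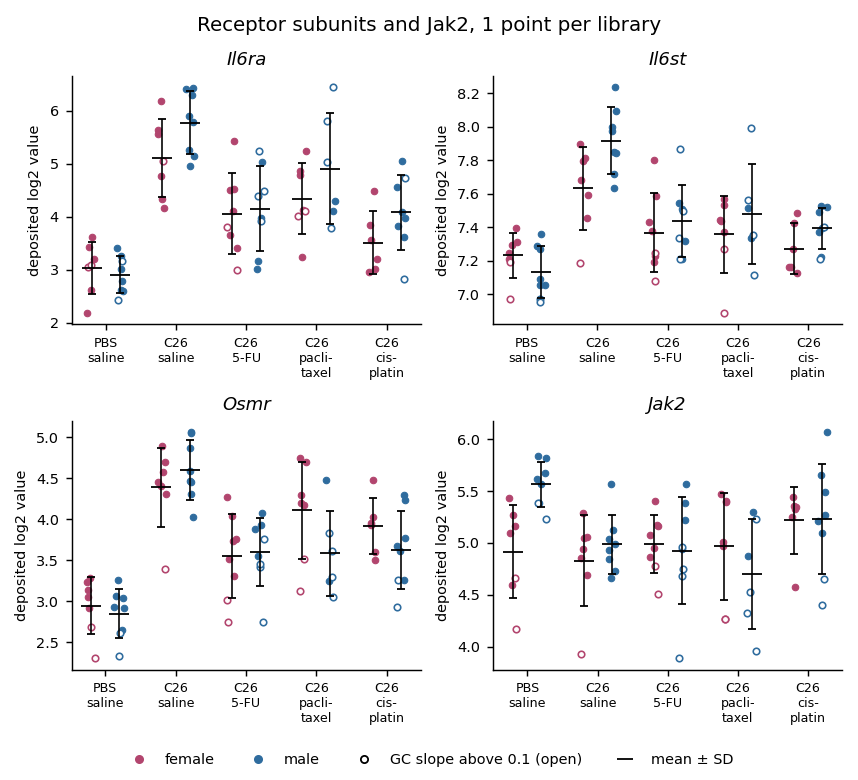
Deposited log2 values (y axis) of Il6ra, Il6st, Osmr and Jak2 in each library, by treatment arm (x axis) and sex (colour); bars give mean ± SD and open points are libraries with a GC slope above 0.1. In males the C26 saline libraries of Il6ra (4.96 to 6.44), Il6st (7.63 to 8.23) and Osmr (4.02 to 5.06) all sit above the PBS libraries, and the lowest Jak2 values are open points.

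Jak2, the kinase bound to these receptors, fell in males by 0.58 ± 0.21 (adjusted p = 0.0288), from 5.23 to 5.84 (median 5.59) with PBS to 4.66 to 5.57 (median 4.97) with the tumour. The groups overlapped. That call was lost without PBS replicate 3 (-0.54, adjusted p = 0.0546), PBS replicate 7 (-0.54, adjusted p = 0.0533), C26 saline replicate 5 (-0.54, adjusted p = 0.059) or C26 saline replicate 8 (-0.53, adjusted p = 0.0557), and without the high-GC libraries the change was -0.66 (adjusted p = 0.00022). In females the change was -0.08 ± 0.22 (adjusted p = 0.893, 95% interval -0.52 to 0.36).

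Stat3 rose by 1.48 ± 0.21 in females and by 1.67 ± 0.19 in males (2.79-fold and 3.17-fold, adjusted p = 4.83e-07 and 1.03e-09). Its PBS levels were narrow, from 5.87 to 6.41 (median 5.94) in females and from 5.79 to 6.12 (median 5.91) in males. With the tumour they ran from 6.58 to 8.08 (median 7.74) and from 6.69 to 7.89 (median 7.65), above PBS in every library. In males 7 of the 8 tumour libraries lay at 7.55 or above, and replicate 4 alone was at 6.69.

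Socs3, the feedback inhibitor, had the widest spread among tumour hosts. Female levels ran from 0.61 to 2.23 (median 1.40) with PBS and from 2.55 to 7.74 (median 4.93) with the tumour, a range over which the highest host was C26 saline replicate 6. Male levels ran from 0.89 to 3.60 (median 1.54) with PBS and from 2.21 to 6.52 (median 4.17) with the tumour. The male groups overlapped through 1 control, PBS replicate 7 at 3.60, since the next highest PBS library was at 1.74. The change was 3.15 ± 0.54 in females (8.86-fold, adjusted p = 3.95e-05) and 2.64 ± 0.50 in males (6.23-fold, adjusted p = 3.94e-05).

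Bcl3, an IkB-like protein that acts as a nuclear co-regulator of NF-kB subunits, rose by 1.98 ± 0.36 in females and 2.05 ± 0.34 in males (3.95-fold and 4.13-fold, adjusted p = 9.72e-05 and 2.58e-06). It had the lowest PBS levels of the 10 genes, at -0.51 to 0.48 (median 0.20) in females and -0.58 to 0.58 (median -0.08) in males. With the tumour it ran from 1.49 to 3.14 (median 1.76) and from 1.45 to 2.56 (median 1.97), with no overlap in either sex. Sbno2 rose by 1.44 ± 0.26 and 1.76 ± 0.24 (2.72-fold and 3.39-fold, adjusted p = 8.25e-05 and 5.66e-08). Its female levels of 3.49 to 4.13 with PBS and 4.12 to 6.59 with the tumour met at the edge, and its male levels of 3.11 to 4.03 and 4.21 to 6.34 did not.

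The 2 C/EBP genes, which encode leucine-zipper factors of the acute-phase and glucocorticoid responses, differed from each other. Cebpd rose by 2.03 ± 0.43 in males (4.08-fold, adjusted p = 0.000212), from 4.10 to 5.90 (median 4.79) with PBS to 5.25 to 8.22 (median 7.03) with the tumour. In females it rose by 1.53 ± 0.46 (2.88-fold, adjusted p = 0.0305), from 4.70 to 5.34 (median 4.93) to 5.67 to 7.36 (median 6.26) without overlap. That female call was lost without any 1 of PBS replicates 2 and 5 and C26 saline replicates 1, 3 and 6 (changes of 1.39 to 1.50, adjusted p of 0.0501 to 0.094). Cebpb did not pass in either sex, at -0.24 ± 0.35 in females (adjusted p = 0.785, 95% interval -0.94 to 0.45) and 0.65 ± 0.33 in males (adjusted p = 0.139). Its female levels ran from 6.58 to 7.73 (median 7.11) with PBS and from 6.43 to 7.96 (median 6.96) with the tumour, and its male levels from 6.38 to 6.93 (median 6.60) and from 6.40 to 7.84 (median 7.37). Without the high-GC libraries the male change passed, at 0.71 (adjusted p = 0.00265).

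**Figure D2:**
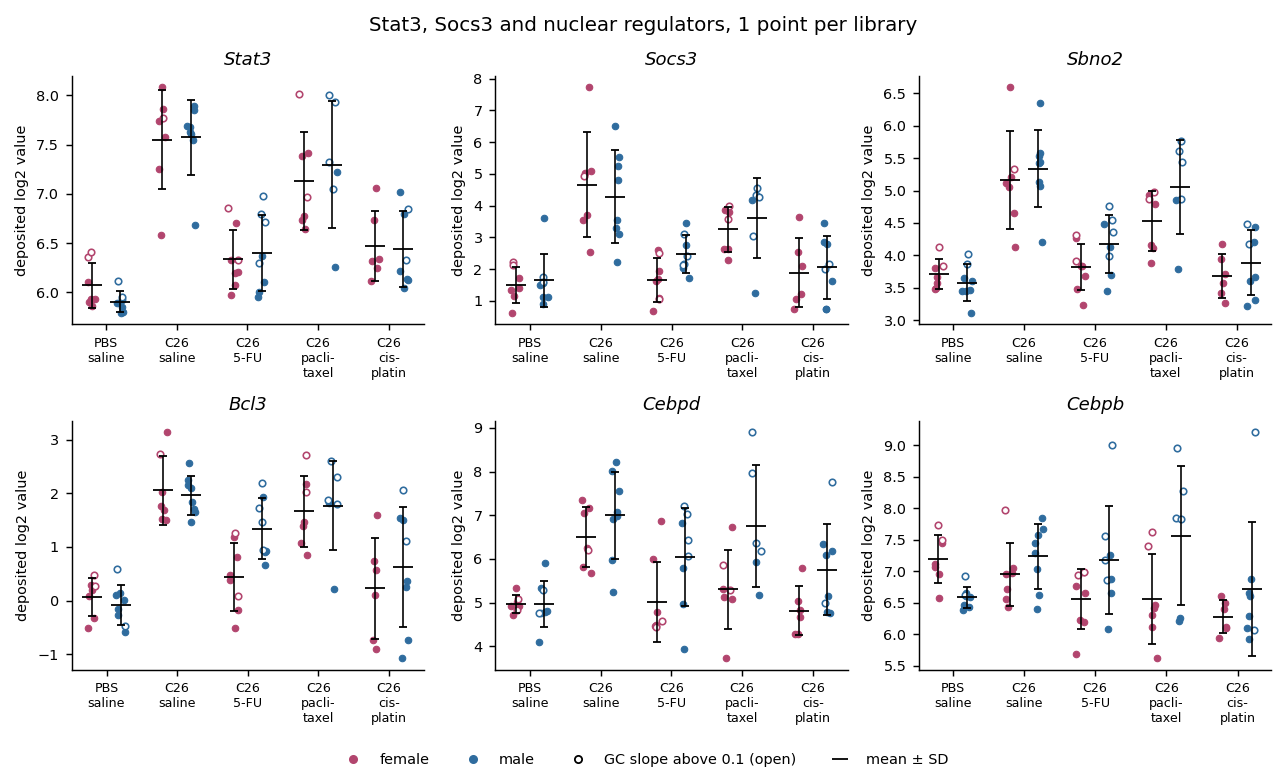
Deposited log2 values (y axis) of Stat3, Socs3, Sbno2, Bcl3, Cebpd and Cebpb in each library, by treatment arm (x axis) and sex (colour); bars give mean ± SD and open points are libraries with a GC slope above 0.1. Stat3 in C26 saline (6.58 to 8.08 in females) lies above PBS saline (5.87 to 6.41), paclitaxel keeps medians of 6.97 in females and 7.28 in males, and the medians with 5-fluorouracil and cisplatin lie between 6.27 and 6.34.

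5-Fluorouracil and cisplatin, against C26 saline, lowered Stat3, Socs3 and Sbno2 in both sexes. These comparisons share the C26 saline libraries with each other and with the tumour comparison. With 5-fluorouracil 5 genes fell in females (1.2% of all genes fell and 0.152% rose) and 6 in males (12% fell and 11.3% rose). With cisplatin 6 fell in females (1.31% of all genes fell and 0.346% rose) and 8 in males (8.23% fell and 7.66% rose). None of the 10 rose, and the 10 genes had median changes of -1.13 and -0.98 with 5-fluorouracil and of -1.28 and -1.19 with cisplatin, in females and males. Without the high-GC libraries 5 and 6 were called with 5-fluorouracil, and 8 and 10 with cisplatin, where all fell except Jak2, which rose in males. The shares of all genes given here come from the fit to all libraries and were not computed for the smaller one.

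In females given 5-fluorouracil, Socs3 ran from 0.67 to 2.60 (median 1.65), and in those given cisplatin from 0.75 to 3.64 (median 1.65). It fell by 3.01 ± 0.52 and by 2.78 ± 0.56 (adjusted p = 0.00027 and 0.00221). In males it ran from 1.73 to 3.47 (median 2.29) and from 0.73 to 3.44 (median 2.09), and fell by 1.81 ± 0.50 and 2.23 ± 0.50 (adjusted p = 0.00688 and 0.00101). All 4 of these ranges overlapped the tumour hosts given saline, whose lowest members were at 2.55 and 2.21. Without the high-GC libraries the male 5-fluorouracil change was -1.79 and no longer passed (adjusted p = 0.0603).

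Stat3 fell by 1.22 ± 0.20 and 1.08 ± 0.21 in females and by 1.17 ± 0.19 and 1.13 ± 0.19 in males, with 5-fluorouracil and cisplatin (adjusted p = 0.000121, 0.00201, 1.39e-05 and 2.1e-05). Its levels ran from 5.98 to 6.86 (median 6.27) and 6.11 to 7.06 (median 6.33) in females, and from 5.95 to 6.98 (median 6.34) and 6.05 to 7.02 (median 6.27) in males. Sbno2 fell by 1.34 ± 0.25 and 1.48 ± 0.27 in females and by 1.16 ± 0.24 and 1.45 ± 0.24 in males (adjusted p = 0.000711, 0.000753, 0.000374 and 1.55e-05). The treated medians of both genes lay within 1 unit of the PBS medians.

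Bcl3 fell by 1.61 ± 0.35 with 5-fluorouracil in females (adjusted p = 0.00538), where its levels of -0.51 to 1.25 did not overlap the tumour hosts given saline (0.318% of all genes were lower without overlap). With cisplatin it fell by 1.82 ± 0.37 in females and 1.34 ± 0.34 in males (adjusted p = 0.00252 and 0.00317). In males given 5-fluorouracil its levels stayed at 0.65 to 2.19 (median 1.20), and the change of -0.62 ± 0.34 did not pass (adjusted p = 0.164, 95% interval -1.29 to 0.05).

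The receptors followed less evenly. Il6ra fell in males with both drugs, by 1.63 ± 0.34 and 1.69 ± 0.34 (adjusted p = 0.000339 and 0.000182), and in females with cisplatin, by 1.59 ± 0.37 (adjusted p = 0.0122). The female cisplatin call was lost without C26 saline replicate 6 (-1.41, adjusted p = 0.0628) or cisplatin replicate 3 (-1.48, adjusted p = 0.0521). With 5-fluorouracil in females it changed by -1.04 ± 0.35 (adjusted p = 0.143), and passed without 5-fluorouracil replicate 1 (-1.24, adjusted p = 0.044).

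Il6st fell in males, by 0.48 ± 0.10 and 0.52 ± 0.10 (adjusted p = 0.000556 and 0.000167). With cisplatin its male levels of 7.21 to 7.53 did not overlap the 7.63 to 8.23 of saline (0.419% of all genes were lower without overlap). In females the Il6st changes of -0.26 ± 0.11 and -0.36 ± 0.11 did not pass (adjusted p = 0.306 and 0.0834), the latter passing without C26 saline replicate 7 (-0.43, adjusted p = 0.0369).

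Osmr fell in males with both drugs, by 1.00 ± 0.22 and 0.97 ± 0.22 (adjusted p = 0.00066 and 0.000913). In females it fell with 5-fluorouracil by 0.84 ± 0.23 (adjusted p = 0.035), a call lost without any 1 of C26 saline replicates 1, 2, 3, 5 and 6 or 5-fluorouracil replicates 3, 4, 7 and 8 (changes of -0.84 to -0.73, adjusted p of 0.0625 to 0.143). With cisplatin in females it changed by -0.47 ± 0.24 (adjusted p = 0.288), with levels of 3.51 to 4.48 (median 3.95) that all lay above the female PBS range.

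Cebpd fell with cisplatin, by 1.69 ± 0.48 in females and 1.24 ± 0.43 in males (adjusted p = 0.0494 and 0.0388). Both calls were fragile. The female one was lost without any 1 of C26 saline replicates 1, 2, 3, 6 and 7 or cisplatin replicates 1, 2, 3, 5 and 6 (changes of -1.74 to -1.55, adjusted p of 0.0598 to 0.15). The male one was lost without any 1 of C26 saline replicates 3, 5 and 6 or cisplatin replicates 1, 2, 7 and 8 (changes of -1.16 to -1.07, adjusted p of 0.0669 to 0.112). With 5-fluorouracil it changed by -1.49 ± 0.45 in females and -0.96 ± 0.43 in males (adjusted p = 0.0803 and 0.0941), and passed without female 5-fluorouracil replicate 1 (-1.76, adjusted p = 0.0241) or male C26 saline replicate 2 (-1.21, adjusted p = 0.0369).

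Cebpb and Jak2 passed with neither drug in either sex when all libraries were used. In males given cisplatin both passed without the high-GC libraries, where Jak2 rose by 0.48 (adjusted p = 0.0104) and Cebpb fell by 0.83 (adjusted p = 0.00125), and both passed with the GC slope as a covariate, at 0.39 and -0.73 (adjusted p = 0.0154 and 0.0115). Cebpb in males given cisplatin held 1 library far above the rest, replicate 4 at 9.20 against 6.87 for the next, and without it the change moved from -0.52 ± 0.33 (adjusted p = 0.3) to -0.87 (adjusted p = 0.0325). That library has a GC slope over 0.1. With all libraries the Jak2 changes ran from -0.06 to 0.39.

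**Figure D3:**
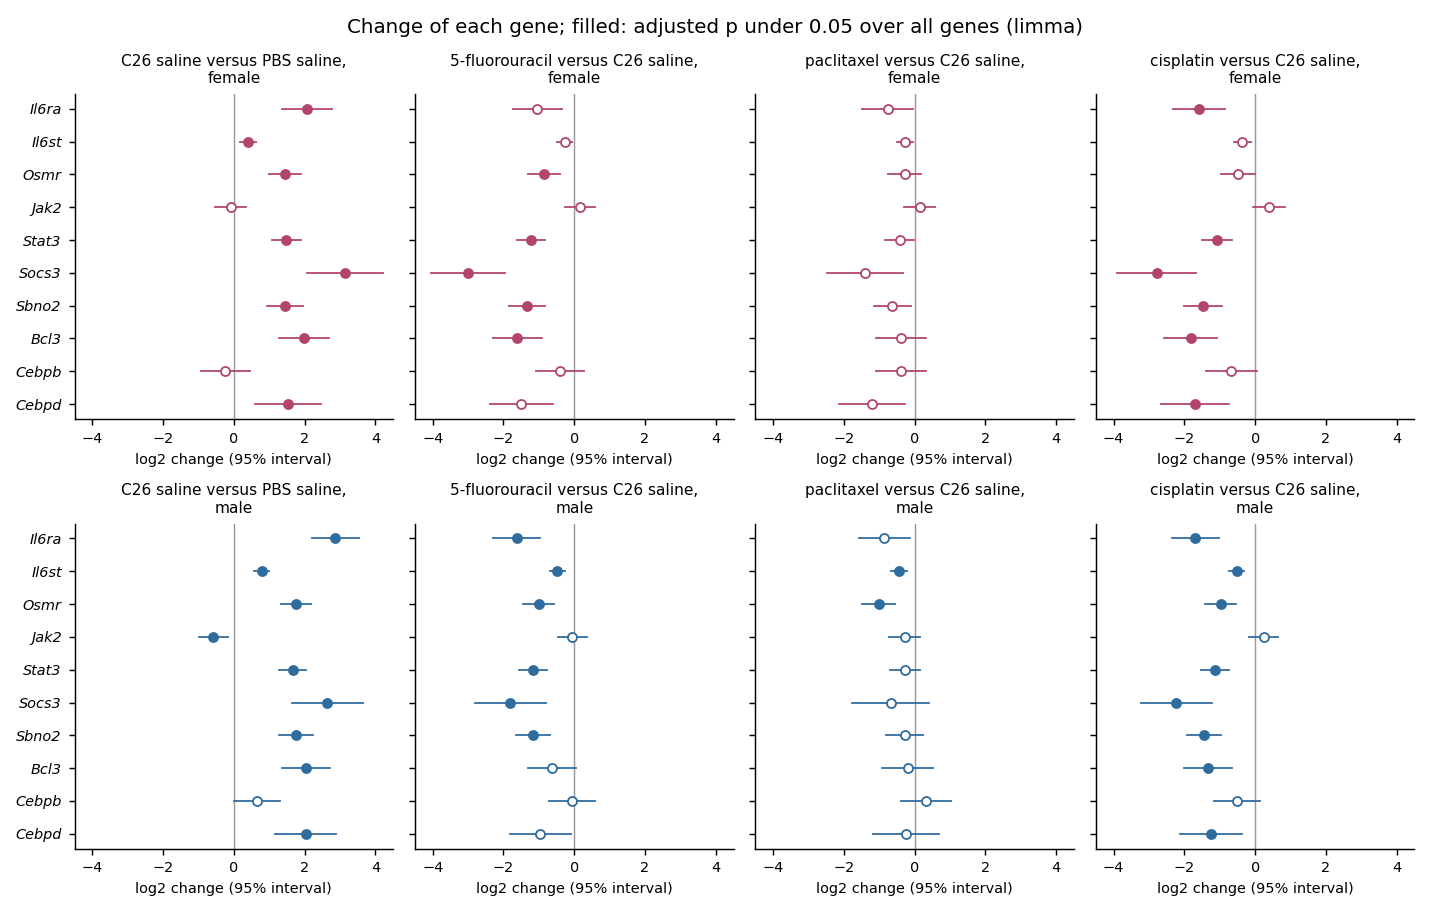
Log2 change (x axis) of each gene (y axis) with its 95% interval in 8 comparisons, females in the top row and males in the bottom row; filled points have an adjusted p under 0.05 over all genes in limma. Socs3 moved most in females, at 3.15 with the tumour and -3.01 with 5-fluorouracil, and in the paclitaxel column the filled points are Il6st and Osmr in males.

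With paclitaxel 9 of the 10 genes had a mean below that of tumour hosts given saline, in each sex, and few were called. Against C26 saline no gene of the 10 was called in females. There 0% of all genes were called, so that count says nothing about the 10. Of the 10, 6 had an unadjusted p under 0.05 in limma, for which the share of all genes was not computed. In males Il6st and Osmr fell, by 0.44 ± 0.11 and 1.02 ± 0.24 (adjusted p = 0.00392 and 0.00206), where 18.5% of all genes fell and 13.5% rose. These 2 of 10 are a share close to that of all genes that fell. The median change over the 10 genes was -0.40 in females and -0.29 in males, beside 0.00 over all genes in both sexes.

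Stat3 with paclitaxel ran from 6.64 to 8.02 (median 6.97) in females and from 6.25 to 8.01 (median 7.28) in males, and its changes of -0.42 ± 0.21 and -0.28 ± 0.21 had 95% intervals of -0.83 to -0.01 and -0.69 to 0.14 (adjusted p = 0.81 and 0.308). Socs3 ran from 2.28 to 3.98 (median 3.58) and from 1.26 to 4.54 (median 4.23), and its changes of -1.41 ± 0.54 and -0.68 ± 0.54 had intervals of -2.49 to -0.34 and -1.76 to 0.41 (adjusted p = 0.64 and 0.341). A fall of more than a log2 unit in Socs3 therefore remained within both intervals. In males, paclitaxel replicate 4 stood below the other 5 libraries, with Stat3 at 6.25, Socs3 at 1.26, Bcl3 at 0.22 and Sbno2 at 3.78.

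The 4 male paclitaxel libraries with a high GC slope bear on this arm. With the 2 that remained without them, 3 genes were called against C26 saline: Il6ra at -1.58 (adjusted p = 0.0464), Il6st at -0.49 (adjusted p = 0.0189) and Cebpb at -1.001 (adjusted p = 0.0289), the last having been 0.33 ± 0.35 (adjusted p = 0.491) with all 6. Osmr was then at -0.74 and no longer passed (adjusted p = 0.0684), and Stat3 was at -0.83 (adjusted p = 0.0552). With the GC slope as a covariate 0 were called. Il6ra, at -0.86 ± 0.36 with all libraries (adjusted p = 0.0582), also passed without any 1 of C26 saline replicates 2, 4 and 8 or paclitaxel replicates 2 and 3 (changes of -1.17 to -0.94, adjusted p of 0.014 to 0.0487).

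The difference between paclitaxel and the other drugs was tested directly, in 4 comparisons added after the levels had been seen. Stat3 was higher with paclitaxel than with 5-fluorouracil by 0.80 ± 0.20 in females and 0.89 ± 0.21 in males, and higher than with cisplatin by 0.67 ± 0.21 and 0.86 ± 0.21. Sbno2 was higher by 0.71 ± 0.25 and 0.88 ± 0.26, and by 0.85 ± 0.27 and 1.16 ± 0.26. Socs3 was higher by 1.60 ± 0.52 and 1.13 ± 0.54, and by 1.37 ± 0.56 and 1.55 ± 0.54. None of the 10 genes passed over all genes in any of the 4 in limma. Its unadjusted p was under 0.05 for 5 and 4 of 10 against 5-fluorouracil, in females and males. Against cisplatin it was for 5 and 8 of 10. The share of all genes at that unadjusted p was not computed. The closest to passing were Sbno2 and Stat3 against cisplatin in males (adjusted p = 0.0534 and 0.0606) and Stat3 against 5-fluorouracil in females (adjusted p = 0.0578). None passed without the high-GC libraries either, and Stat3 was then at 0.74 and 0.63 against 5-fluorouracil and at 0.52 and 0.35 against cisplatin, in females and males. In these comparisons 0.188%, 0.0144%, 0.0217% and 0.0144% of all genes were called.

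Several of these tests turned on single libraries. The share of all genes called was not computed for fits without a library, so the counts below describe calls only. Without male paclitaxel replicate 4, Stat3 and Sbno2 passed against 5-fluorouracil (1.10 and 1.13, adjusted p = 0.017 and 0.047) and 7 of the 10 genes passed against cisplatin, Stat3 at 1.07 (adjusted p = 0.00296) and Socs3 at 2.02 (adjusted p = 0.0164). Without male cisplatin replicate 4, 7 genes passed, without male paclitaxel replicate 6, 4 did, and without male cisplatin replicate 6, 2 did, with Stat3 at 0.92, 0.87 and 0.91. In both fits with 7 calls, 6 genes were higher with paclitaxel and Jak2 was lower, at -0.65. Male paclitaxel replicates 4 and 6 are the 2 of their arm without a high GC slope (-0.03 and -0.09). Male cisplatin replicate 4 has a slope of 0.54. The part of the GC slope in these calls was not tested. In females Stat3 passed against 5-fluorouracil without 5-fluorouracil replicate 7 or any 1 of paclitaxel replicates 1, 4 and 6 (0.83 to 0.88, adjusted p of 0.0253 to 0.0491), and Bcl3 passed against cisplatin without paclitaxel replicate 4 (1.57, adjusted p = 0.0461).

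The drug arms were also set against tumour-free muscle, with the PBS saline libraries shared by all of these comparisons. In females given paclitaxel 5 genes were above PBS saline (Il6ra, Osmr, Stat3, Socs3 and Bcl3), where 2.89% of all genes were higher and 1.69% lower, and Stat3, Socs3 and Bcl3 did not overlap PBS (1.08% of all genes). In females given 5-fluorouracil or cisplatin no gene passed, where 0.383% and 0.209% of all genes did, at an unadjusted p under 0.05 for Il6ra and Osmr with the first and for Osmr and Cebpb with the second. Osmr with cisplatin was at 0.97 ± 0.24 (adjusted p = 0.061) and every library lay above PBS (0.534% of all genes). Socs3 in these arms was within 0.14 ± 0.52 and 0.37 ± 0.56 of PBS, with 95% intervals of -0.90 to 1.18 and -0.75 to 1.49. Of the paclitaxel calls, Socs3 (1.73 ± 0.54, adjusted p = 0.0454) was lost without any 1 of PBS replicates 1, 2, 3, 4 and 7 or paclitaxel replicates 2, 3, 6 and 7 (changes of 1.58 to 1.77, adjusted p of 0.0592 to 0.105). Il6ra (1.31 ± 0.36, adjusted p = 0.0192) was lost without PBS replicate 1 or paclitaxel replicates 2 or 3 (changes of 1.16 to 1.22, adjusted p of 0.0525 to 0.0657). With the high-GC libraries left out 5 genes were called in females given paclitaxel, of which Il6ra, Osmr, Stat3 and Bcl3 rose, Cebpb fell (-0.85, adjusted p = 0.0167) and Socs3 no longer passed (1.79, adjusted p = 0.137), and none was called with the other drugs. Sbno2, at 0.81 ± 0.26 (adjusted p = 0.0512), passed without PBS replicate 5 or any 1 of paclitaxel replicates 1, 4 and 5 (changes of 0.88 to 0.92, adjusted p of 0.0298 to 0.0472).

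In males given paclitaxel 9 genes were above PBS and Jak2 was below, where 16.9% of all genes were higher and 20.6% lower. Stat3 was at 1.39 ± 0.21, Il6ra at 2.00 ± 0.36 and Jak2 at -0.86 ± 0.22 (adjusted p = 3.68e-06, 9.41e-05 and 0.00311), and Stat3 and Il6ra did not overlap PBS (1.58% of all genes). Cebpb rose by 0.98 ± 0.35 here (adjusted p = 0.0256), lost without any 1 of paclitaxel replicates 1, 2, 3 and 5 (changes of 0.70 to 0.92, adjusted p of 0.0569 to 0.131). Il6st (0.35 ± 0.11) was lost without paclitaxel replicate 3 (0.24, adjusted p = 0.0885) and Osmr (0.74 ± 0.24) without paclitaxel replicate 6 (0.56, adjusted p = 0.0517). None of the 10 passed without the high-GC libraries, which left 2 in this arm, and Stat3 was then at 0.88 (adjusted p = 0.17) and Cebpb at -0.29 (adjusted p = 0.737).

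In males given 5-fluorouracil Il6ra, Osmr and Bcl3 were above PBS, at 1.24 ± 0.34, 0.76 ± 0.22 and 1.42 ± 0.34 (adjusted p = 0.0224, 0.0321 and 0.00813), where 2.52% of all genes were higher and 2.24% lower, and Bcl3 did not overlap PBS (0.231% of all genes). Socs3 was at 0.83 ± 0.50 (adjusted p = 0.263). Il6ra was lost without 5-fluorouracil replicate 4 (1.19, adjusted p = 0.0565) or 7 (1.08, adjusted p = 0.0921). Osmr was lost without any 1 of PBS replicates 2 and 6 or 5-fluorouracil replicates 2, 7 and 8 (changes of 0.68 to 0.78, adjusted p of 0.0521 to 0.0643). Jak2, at -0.64 ± 0.21 (adjusted p = 0.0531), passed without any 1 of PBS replicates 2 and 4 or 5-fluorouracil replicates 1, 2 and 3 (changes of -0.73 to -0.67, adjusted p of 0.0246 to 0.0465). Il6st, at 0.30 ± 0.10, passed without 5-fluorouracil replicate 1 or 3 (0.32 and 0.34, adjusted p = 0.0422 and 0.0386), and Cebpd, at 1.07 ± 0.43, without replicate 1 (1.37, adjusted p = 0.0326). Osmr alone was called without the high-GC libraries, at 0.89 (adjusted p = 0.0491).

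In males given cisplatin none passed in limma, where 0.902% of all genes did. Il6ra and Osmr came closest, at 1.17 ± 0.34 and 0.78 ± 0.22 (adjusted p = 0.0687 and 0.059). Il6ra passed without cisplatin replicate 2 or 8 (1.24 and 1.35, adjusted p = 0.044 and 0.0343) and Osmr without cisplatin replicate 2 (0.83, adjusted p = 0.034). Of the 10 genes, 5 had an unadjusted p under 0.05. Osmr alone was called without the high-GC libraries, at 0.83 (adjusted p = 0.0284).

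**Figure D4:**
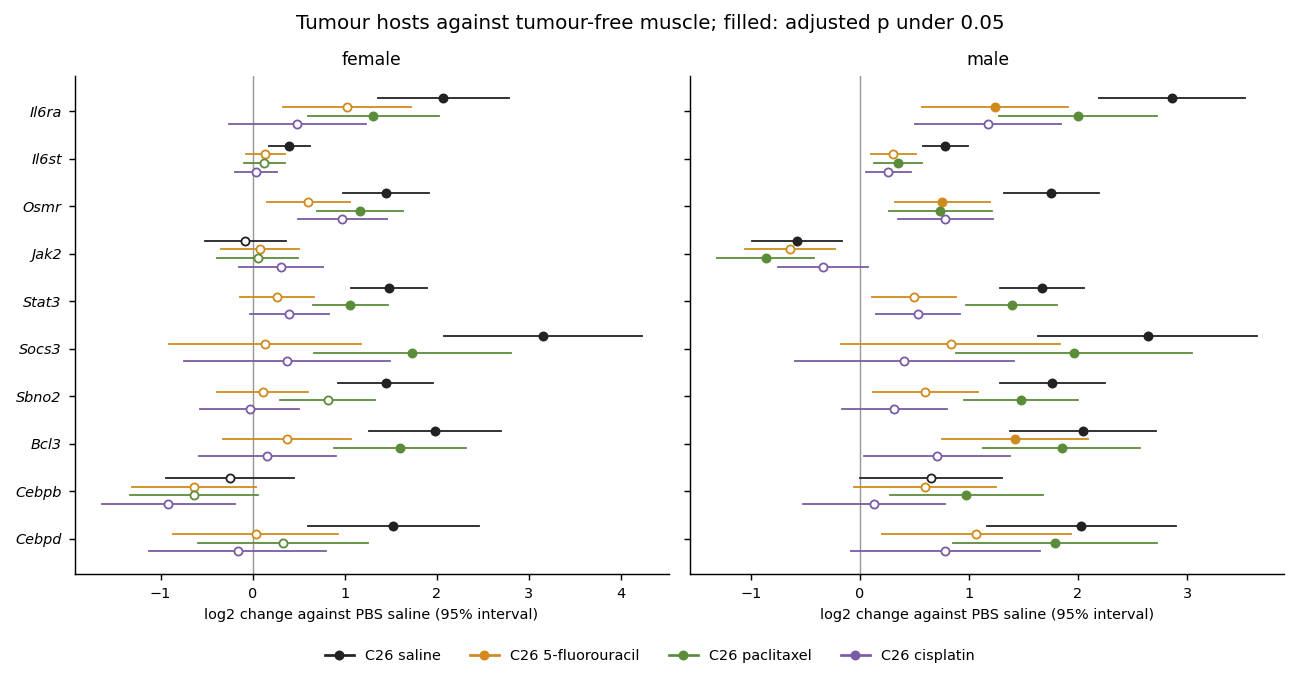
Log2 change against PBS saline (x axis) of each gene (y axis) with its 95% interval, for the 4 tumour-bearing arms (colours) in females (left) and males (right); filled points have an adjusted p under 0.05 over all genes. Stat3 lies at 1.06 with paclitaxel and 0.26 with 5-fluorouracil in females, and at 1.39 and 0.50 in males.

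Ordering the 10 groups by mean level, Stat3 and Socs3 each had a single step larger than the larger SD of the neighbouring groups. For Stat3 it fell between female paclitaxel, at 7.13 ± 0.50 (SD, n = 7), and female cisplatin, at 6.47 ± 0.36 (SD, n = 6). For Socs3 it fell between female paclitaxel, at 3.25 ± 0.71 (SD, n = 7), and male 5-fluorouracil, at 2.47 ± 0.59 (SD, n = 8). Above that step stood the C26 saline and paclitaxel groups of both sexes, and below it all other groups. For Osmr the single such step lay lower, between female 5-fluorouracil at 3.55 ± 0.51 (SD, n = 8) and female PBS at 2.95 ± 0.35 (SD, n = 7), with all tumour-bearing groups above it. For Il6st the single step set male C26 saline, at 7.92 ± 0.20 (SD, n = 8), above the other groups. Neighbours in the order of Il6ra, Jak2, Cebpb, Cebpd, Bcl3 and Sbno2 never differed by more than that SD.

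Whether the sexes responded differently was tested by interaction terms. None of the 40 tests (10 genes in 4 treatments) passed in limma, and 3 had an unadjusted p under 0.05. The Il6st change with the tumour was 0.78 in males and 0.40 in females, a difference in change of 0.39 ± 0.15 (adjusted p = 0.429). The Bcl3 change with 5-fluorouracil was -0.62 in males and -1.61 in females, a difference in change of 0.99 ± 0.48 (adjusted p = 0.334). The Osmr change with paclitaxel was -1.02 in males and -0.28 in females, a difference in change of -0.73 ± 0.33 (adjusted p = 0.232). The Jak2 difference in tumour effect was -0.50 ± 0.30 (adjusted p = 0.756, 95% interval -1.10 to 0.11) and that of Socs3 was -0.51 ± 0.74 (95% interval -1.98 to 0.96), so differences of a log2 unit or more in Jak2 and Socs3 remained within the intervals. None passed without the high-GC libraries. Over all genes 0.0361% were called for the tumour and 0% for each drug.

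The rest of the pathway was read from lists of other genes, named here by the smallest adjusted p, and their counts stand beside the same shares of all genes as above (with the tumour 4.14% rose and 2.56% fell in females, and 13.1% and 13% in males). Of the IL-6 family ligands, 5 of 10 were measured and none rose with the tumour. Lif, a gp130 cytokine, fell by 1.68 ± 0.51 in females and 1.36 ± 0.48 in males (adjusted p = 0.0311 and 0.0269), at low levels (-5.46 to -1.18 in female tumour hosts). Lif was at 0 in 1 of 73 libraries, and -5.46 is the floor of female C26 saline replicate 5. The female fall therefore rests in part on a floor value. Ctf1, which encodes cardiotrophin, fell by 0.43 ± 0.09 in males (adjusted p = 0.000288). Il6, Il11, Osm, Il27 and Ebi3 were not analysed here. Of 4 other gp130-family receptors measured, Cntfr, the ciliary neurotrophic factor receptor, fell in males by 1.19 ± 0.30 (adjusted p = 0.00136) and rose again in males with each drug, by 1.55 ± 0.30, 1.21 ± 0.32 and 1.47 ± 0.30 for 5-fluorouracil, paclitaxel and cisplatin (adjusted p = 0.000126, 0.0048 and 0.000237). The list medians with the tumour were -0.02 and -0.15 for ligands and -0.14 and -0.24 for these receptors, in females and males.

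Of the 8 other JAK and STAT genes measured, Jak3, a kinase of lymphoid and myeloid cells, rose with the tumour by 1.27 ± 0.22 in females and 1.18 ± 0.21 in males (adjusted p = 5.02e-05 and 8e-06), with no overlap (2.70 to 3.66 against 4.10 to 4.84 in females, 2.81 to 3.59 against 4.02 to 4.59 in males). Jak1 fell by 0.29 ± 0.11 in males (adjusted p = 0.0478), and the list medians were 0.01 and -0.03. Of 15 other SOCS genes and feedback inhibitors, 1 rose in females (Ptpn6, a phosphatase of blood cells, by 1.01 ± 0.27, adjusted p = 0.012), and in males 1 rose (Ptpn1, a phosphatase that acts on JAK2, by 0.49 ± 0.14, adjusted p = 0.00693) and 1 fell (Socs7, by 0.44 ± 0.09, adjusted p = 0.000235). Among the other SOCS-family genes Cish, Socs1, Socs2, Socs4, Socs5, Socs6 and Socs7, none rose with the tumour in either sex. Cish, a STAT5 target, had the highest values, at 1.26 in females and 0.76 in males (adjusted p = 0.296 and 0.405). Socs2, which restrains growth hormone signalling, fell with cisplatin in females by 1.48 ± 0.31 and with 5-fluorouracil in males by 0.98 ± 0.28 (adjusted p = 0.00317 and 0.00815).

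Of 9 NF-kB and IkB genes, Nfkbiz, an IkB-like co-regulator related to Bcl3, rose with the tumour by 0.90 ± 0.20 in females and 0.83 ± 0.19 in males (adjusted p = 0.00237 and 0.000525), and in males Rela and Nfkbib also rose (0.50 ± 0.14 and 0.69 ± 0.20, adjusted p = 0.00383 and 0.00575). Of 3 other C/EBP genes measured, Ddit3, a stress-induced partner of the family, fell in males by 0.86 ± 0.27 (adjusted p = 0.0118).

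Genes known as STAT3 targets were read as a separate list. They are set beside the shares of all genes that rose or fell. Of 18 measured, 11 rose and none fell with the tumour in females, and 15 rose and 2 fell in males, with medians of 1.25 and 1.74 (4.14% of all genes rose and 2.56% fell in females, 13.1% and 13% in males). The 2 that fell in males were Bcl6 and Ccnd1, with changes of -0.69 and -1.47. With 5-fluorouracil 7 fell in females (1.2% of all genes), and in males 11 fell and 1 rose (12% and 11.3%). With cisplatin 7 fell in females and 12 in males (1.31% and 8.23%). With paclitaxel none was called in females and 3 fell in males: Mcl1 by 0.64 ± 0.17, Lcn2 by 2.37 ± 0.65 and Serpina3n by 1.07 ± 0.43 (adjusted p = 0.00451, 0.00594 and 0.0469). These 3 of 18 are a share close to the 18.5% of all genes that fell there. Medians were -1.30 and -1.03 with 5-fluorouracil, -1.33 and -1.44 with cisplatin, and -0.56 and -0.53 with paclitaxel. This list was chosen with results of these samples known and its genes are partly acute-phase genes, so its direction is not independent evidence.

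Neutrophil genes moved alongside. The 6 neutrophil markers measured of 9 all rose with the tumour in both sexes (medians 3.40 and 3.44), where 4.14% and 13.1% of all genes rose. In females and males 5 and 6 fell with 5-fluorouracil (1.2% and 12% of all genes), and 2 and 6 with cisplatin (1.31% and 8.23%). None was called with paclitaxel, where 0% of all genes were called in females, and 18.5% fell and 13.5% rose in males. Their summed level on the linear scale ran from 0.697 to 3.06 in female PBS and from 4.41 to 34.6 in female C26 saline libraries, and from 1.40 to 11.6 and 9.24 to 31.0 in males. With paclitaxel it ran from 3.81 to 12.0 in females and 7.26 to 29.4 in males, against 0.434 to 9.71 and 1.34 to 15.8 with 5-fluorouracil and 1.15 to 4.58 and 0.916 to 11.1 with cisplatin. Of 15 macrophage markers 8 rose in females and 10 in males with the tumour, and their summed level ran from 72.0 to 139 in female PBS and 145 to 259 in female C26 saline libraries, and from 77.8 to 111 and 103 to 272 in males. With paclitaxel that sum ran from 141 to 352 (median 206) in females and from 145 to 298 (median 191) in males, against medians of 109 and 141 with 5-fluorouracil and of 122 and 127 with cisplatin. The 2 B cell markers measured, Ighm and Cd79b, both fell with the tumour in females and 1 fell in males, where their sum ran from 43.0 to 116 (median 79.9) with PBS and from 0.909 to 15.1 (median 1.57) with the tumour. No marker of the neutrophil or macrophage list was at 0 in every library of any group. Of the 73 libraries Retnlg was at 0 in 10, Cxcr2 in 6, Mmp8 in 4, S100a8 in 3 and S100a9 in 1. There the log2 value is the lowest of its library, so the neutrophil log2 changes rest partly on such values. The part of these cells in the changes of the 10 genes was not tested.

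Libraries of the same group also differed together in several of these genes. After group means were removed, 25 of the 45 pairs of genes were correlated across the 73 libraries at an adjusted p under 0.05 (permutation within groups, 19 positive and 6 negative), and 23 by Spearman's rho. The pairs Stat3 and Sbno2 (r = 0.83, rho = 0.83), Socs3 and Sbno2 (r = 0.82, rho = 0.76), Bcl3 and Sbno2 (r = 0.77, rho = 0.81), Stat3 and Socs3 (r = 0.69, rho = 0.65), Socs3 and Bcl3 (r = 0.67, rho = 0.69) and Stat3 and Bcl3 (r = 0.64, rho = 0.67) formed a first set. For each of these p was 1e-05, the smallest that 100000 permutations can give, and leaving out the 2 farthest libraries gave r of 0.61 to 0.79.

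A second set joined Il6ra and Cebpd (r = 0.72, rho = 0.70), Cebpb and Cebpd (r = 0.66, rho = 0.62), and Il6ra and Il6st (r = 0.52, rho = 0.46). Between the sets r was lower. Stat3 had r = 0.35 with Il6ra (rho = 0.31) and 0.39 with Cebpd (rho = 0.32), both past the threshold. In the 54 libraries with a GC slope of 0.1 or less neither passed (r = 0.32 and 0.27, adjusted p = 0.0546 and 0.105). Cebpb passed with Stat3 and Sbno2 (r = 0.38 and 0.32), and with Bcl3 by r alone (r = 0.38). In those 54 libraries these were -0.004, -0.10 and -0.10, and none passed. Socs3 had r = 0.08 with Il6ra (rho = -0.04, adjusted p = 0.636) and 0.06 with Cebpd (rho = -0.08, adjusted p = 0.701), and neither passed. Jak2 went against the first set, at r = -0.65 with Sbno2 and -0.60 with Stat3.

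The values for Osmr depended on which libraries were included. Over all libraries its highest r was 0.57 with Il6st (rho = 0.51). It also passed with Jak2 (r = 0.44, rho = 0.34, adjusted p = 0.00155) and with Cebpb (r = -0.47). With Socs3 it passed by r alone (r = 0.28, adjusted p = 0.0476, and rho = 0.25, adjusted p = 0.0884). It had r = 0.08 with Stat3 (adjusted p = 0.673), 0.05 with Sbno2 and -0.03 with Bcl3. In the 54 libraries with a GC slope of 0.1 or less it had r = 0.73 with Stat3, 0.68 with Sbno2, 0.67 with Socs3 and 0.63 with Bcl3. There it had r = 0.32 with Il6st, 0.10 with Cebpb and -0.33 with Jak2 (adjusted p = 0.0558 for Jak2). The pairs of the first set were at 0.70 to 0.87 in those 54, and those of the second set at 0.44 to 0.72. Il6st passed in those 54 with Stat3 (r = 0.48), Sbno2 (0.39), Socs3 (0.37) and Bcl3 (0.33). Over all libraries these were 0.25, 0.14, 0.20 and -0.004, and none passed. In all, 26 of 45 pairs passed in the 54.

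**Figure D5:**
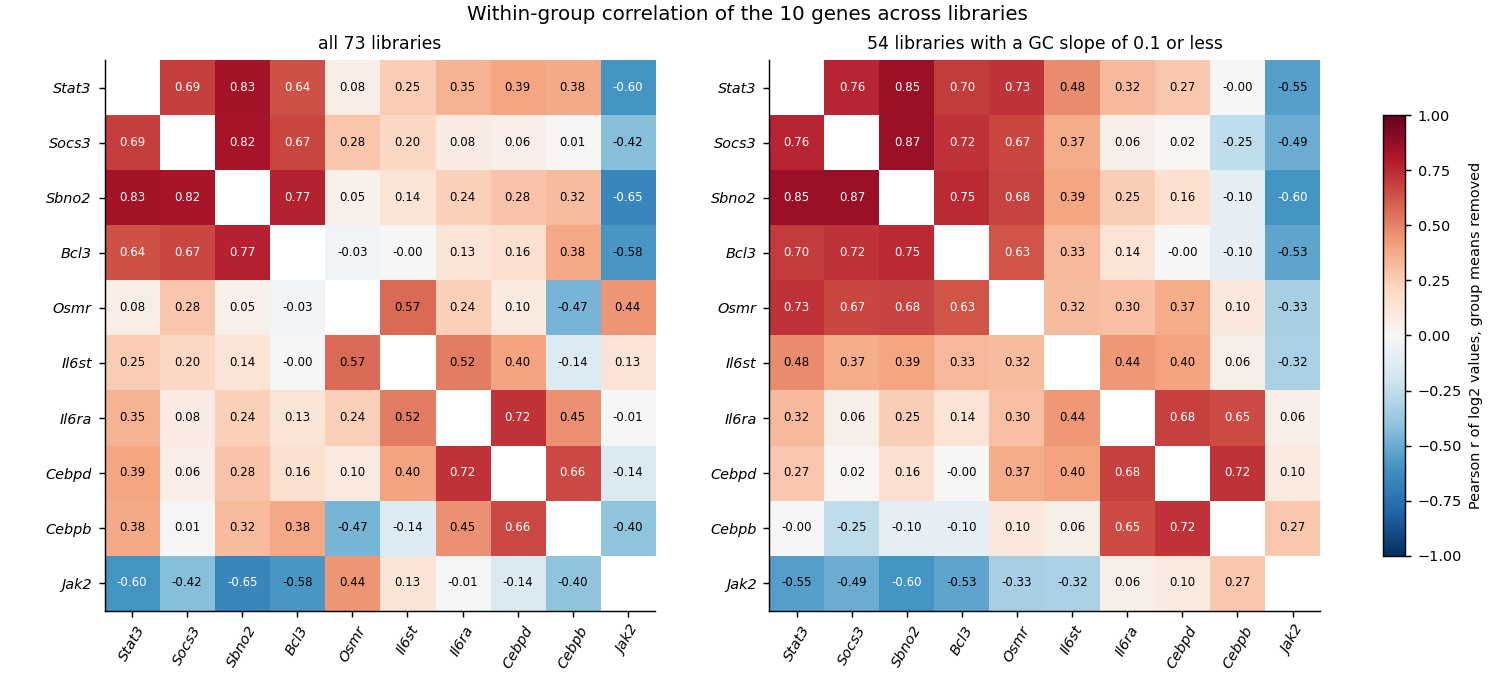
Pearson r between pairs of the 10 genes (both axes) after removal of group means, over all 73 libraries (left) and the 54 with a GC slope of 0.1 or less (right); colour runs from -1 (blue) to 1 (red). Stat3, Socs3, Sbno2 and Bcl3 form a block with r of 0.64 to 0.83 on the left, and Il6ra, Cebpd and Cebpb form another. On the right Osmr joins the first block, and Il6st has r of 0.33 to 0.48 with its genes.

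Within groups, 3 measures of the libraries were set against the 10 genes (30 relations, permutation p adjusted over them). Jak2 (r = -0.79, rho = -0.76), Osmr (r = -0.72, rho = -0.59) and Cebpb (r = 0.72, rho = 0.61) followed the GC slope most closely, with r of -0.76, -0.69 and 0.65 without the 2 farthest libraries. In the 54 libraries of lower slope these were -0.49, -0.09 and 0.04. Bcl3 (r = 0.56), Sbno2 (r = 0.53), Stat3 (r = 0.47) and Il6st (r = -0.35) also passed. Cebpd (r = 0.26, rho = 0.22) and Il6ra (r = 0.06, rho = 0.08) passed by neither measure, and Socs3 passed by rho alone (r = 0.22, adjusted p = 0.0859; rho = 0.30, adjusted p = 0.0194). The summed neutrophil markers, on a log2 scale, had r = 0.41 with Socs3 (rho = 0.40, adjusted p = 0.0012), 0.37 with Sbno2, 0.36 with Bcl3, 0.35 with Osmr, 0.34 with Il6st and 0.31 with Stat3, and from 0.26 to 0.37 for these 6 without the 2 farthest libraries. All 6 passed, at an adjusted p of 0.0012 to 0.0139. In the 54 libraries of lower slope r was higher for these 6, at 0.40 (Il6st) to 0.51 (Bcl3). With Jak2 the neutrophil sum had r = -0.09 over all libraries and -0.33 in those 54. No p was computed for the 54. Over all libraries the neutrophil markers did not pass with Jak2 (adjusted p = 0.619). They had r = 0.07 with Il6ra (adjusted p = 0.688). The summed macrophage markers, also on a log2 scale, passed with Sbno2 (r = 0.35, rho = 0.40), Jak2 (r = -0.35, rho = -0.41) and Stat3 (r = 0.31, rho = 0.35), at an adjusted p of 0.0139, 0.0139 and 0.0371, and without the 2 farthest libraries r was 0.34, -0.33 and 0.30. With that sum Socs3 (r = 0.26, adjusted p = 0.0645; rho = 0.30, adjusted p = 0.0273) and Bcl3 (r = 0.25, adjusted p = 0.0672; rho = 0.32, adjusted p = 0.0178) passed by rho alone. Male PBS replicate 7, the control with high Socs3, had a neutrophil sum of 2.84, and the highest sum among male controls, 11.6, was in replicate 1 with Socs3 at 1.57.

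By the same group-centred measure, the genes outside the 10 that most resembled Socs3 over 73 libraries were Sting1 (r = 0.75), an adaptor of cytosolic DNA sensing, Arid5a (r = 0.75), an RNA-binding protein that stabilises Il6 mRNA, Ecscr (r = 0.71), an endothelial surface protein, Ier3 (r = 0.69), an immediate early gene, and Ets2 (r = 0.68), a transcription factor. Those most like Stat3 were Fxyd5 (r = 0.82), a regulator of the sodium pump, Trim72 (r = 0.77), which repairs muscle membranes, the metallothionein Mt1 (r = 0.73), Nol3 (r = 0.72), an inhibitor of cell death in muscle, and Map1lc3b (r = 0.72), a component of autophagosomes. They are named by likeness alone.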

How the data were processed

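The deposited table holds log2 values for 13856 genes, made by the authors. The submitters' processing notes name FastQC, MultiQC, fastp, Salmon, edgeR and limma with builds mm39 and GRCm39. Of their roles, the filter and the scaling nothing is stated: not given in the sources used here. In each library 85.0 to 90.7% of values, converted back as log2 of an estimated count plus an offset over a scaled library size, fell within 0.02 of a whole number, which gave the depths. That form was inferred from the values.

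Of 75 samples, 1 library whose title says saline while its chemotherapy label says 5-fluorouracil was left in no group, and female PBS saline replicate 8 was not analysed here, leaving 73. limma 3.58.1 in R 4.3.3 was fitted to all genes and 10 groups (63 residual degrees of freedom, moderated variance), where 74 libraries had been planned. It made 18 planned comparisons, 4 of them sex interactions. The 4 of paclitaxel with other drugs were added after the data were seen. The genes and lists were chosen with earlier results of these data known. The text names all 10 genes and the 5 genes most correlated with Socs3 and with Stat3. Of the pathway lists it names at most 4 called genes in a comparison, by adjusted p, and not in every comparison. Of the STAT3 target list it names the genes called in males given paclitaxel and the 2 that fell with the tumour in males. Cish and the remaining SOCS genes were named after their values were seen. The GC slope came from 10637 genes with transcript GC content and length in the model. Tested on simulated data for the female tumour comparison with 13856 genes, the fit recovered 76% of 100 changes of size 1 and 92% of 100 of size 2 (log2), with 11 false calls. The simulated noise was independent between genes, without GC slopes and with the same SD in every group. In these data the Stat3 SD ran from 0.10 to 0.64 between groups, so the rates may not carry over. Promoters are RefSeq's for GRCm38.p6, another build than the authors', and no coordinates were mixed.

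Replicate numbers in the titles were checked as pairs. In 1 of 18 comparisons without interaction, paclitaxel against C26 saline in females, every pair's deviations correlated above 0.1 (lowest 0.156), and the fit with the replicate block called 0 of the 10 genes there, as did the fit without it.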

Additional observations from a re-analysis of the deposited data

Results flagged for a closer look

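In each of 100 groups (10 genes in 10 groups of 6 to 8 libraries) the most extreme library was compared with the others by Dixon's criterion at the 95% level. Chance flags about 1 in 20 groups, and 7 were flagged here. Stat3 was at 6.69 in male C26 saline replicate 4, with the next library at 7.55. Socs3 was at 3.60 in male PBS saline replicate 7, with the next at 1.74. Bcl3 was at 0.217 in male paclitaxel replicate 4, with the next at 1.79. Osmr was at 3.40 in female C26 saline replicate 7, with the next at 4.31, and Cebpb was at 7.96 in that library, with the next at 7.05. Cebpb was at 9.20 in male cisplatin replicate 4, with the next at 6.87. The last 2 of these libraries had GC slopes over 0.1. Jak2 was at 4.58 in female cisplatin replicate 2, with the next at 5.25. The causes were not tested. No sex difference among the 40 interaction tests passed.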

How the results depend on the processing

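Counts of the 10 genes called moved as follows, with the value of the reported fit in brackets, and the cause was not tested. The share of all genes called under these settings was not computed. Against PBS, cisplatin in females gave 1 by quantile normalization, 2 with only the compared groups, 2 with quality weights and 1 with the GC slope or the mitochondrial share as covariate (0). Cisplatin in males gave 2, 1, 1, 2 and 2 in that order, and 1 without high-GC libraries (0). 5-Fluorouracil in females gave 2 with quality weights and 1 with either covariate (0), and in males 7 with quality weights and 1 without high-GC libraries (3). Paclitaxel in males gave 6 with either covariate and 0 without high-GC libraries (10), and against C26 saline 0 with the GC covariate (2). The paclitaxel interaction gave 2 with quality weights (0). Paclitaxel against 5-fluorouracil in females gave 1 by quantile normalization, 5 with quality weights, 3 with the GC covariate and 2 with the mitochondrial covariate (0). Paclitaxel against cisplatin gave 5 in females and 6 in males with quality weights, and 2 in males after adding 1 on the linear scale (0). Cebpb reversed in males given paclitaxel without high-GC libraries, to -1.001 against C26 saline (0.33) and -0.29 against PBS (0.98), with 2 libraries left in that arm.

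The replicate block gave 1 for paclitaxel against 5-fluorouracil in females and 2 against cisplatin in males (0), and moved no other count by more than 1.5 times. Every pair of equal numbers correlated above 0.1 in 1 of 18 comparisons, paclitaxel against C26 saline in females. There 4 of 7 paclitaxel libraries correlated best with the C26 saline library of their own number. The labels do not pair the samples, and this check does not establish that the numbers do.

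Leaving out 1 library at a time gave, in females and males, 6 to 8 and 8 to 9 for the tumour, 4 to 7 and 6 to 7 for 5-fluorouracil, 4 to 6 and 7 to 9 for cisplatin, and 0 to 0 and 2 to 3 for paclitaxel against C26 saline. Against PBS it gave 0 to 0 and 1 to 6, 0 to 0 and 0 to 2, and 3 to 6 and 8 to 10 in the same drug order. Paclitaxel gave 0 to 1 and 0 to 2 against 5-fluorouracil and 0 to 1 and 0 to 7 against cisplatin, and the interactions 0 throughout. Of single-gene values under the other settings, 1825 kept their side of the threshold, 99 newly passed and 32 no longer passed. A further 2 changed sign with a call in 1 of the fits compared. A change of sign in a value called in neither fit was counted among the 1825. Bcl3 and Socs3 had the lowest levels of the 10 genes in PBS libraries, where counting error weighs most.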
